A study of Homo sapiens with 30 samples.

Results

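The potassium channel genes were taken as every row of the raw count table whose Ensembl ID maps to a protein-coding symbol that starts with KCN. There were 85 such genes among 39359 rows, and 16 further rows with KCN symbols were left out because the annotation gives them another biotype, such as antisense RNA. H1299 is a human lung carcinoma cell line that lacks p53. The cells were transiently transfected and sorted on GFP expression, and RNA was taken at 6 h and 24 h after transfection in biological triplicate, which gave 10 groups of 3 libraries. All vectors expressed GFP. The control vector, pGFP, expressed nothing else. The others also expressed p53, as wild type p53, as RW mutant p53 (R248W, changed at codon 248), or as p53 O6-meG. The last is a wild type sequence with a single O6-methylguanine on the template strand at codon 248. In the paper, uridine inserted opposite this lesion gives transcripts that encode the RW mutant. In p53 TM, for transcriptional mutagenesis, the O6-meG vector was combined with 10 µM O6-benzylguanine, which inactivates the repair enzyme AGT so that RNA polymerase meets the unrepaired lesion. No other group received O6-benzylguanine. p53 and GFP were driven by separate inducible promoters from the transfected plasmid, so the levels of p53 are those of this ectopic system in 1 cell line.

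Potassium channels let K+ flow along its gradient, which sets the resting membrane potential and contributes to cell volume and proliferation in non-excitable cells as well as to electrical signalling in nerve and muscle. Pore-forming subunits fall into voltage-gated, inwardly rectifying, calcium- or sodium-activated and tandem pore domain classes, the last of which carry background or leak currents. Silent modulatory subunits form no channel of their own and alter the Kv channels they join, such as those of KCNB2, while auxiliary subunits tune gating and surface expression. The tumour suppressor p53 acts as a transcription factor that binds DNA.

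The libraries held between 32302699 and 71950532 counts. The carcinoma line markers VIM, KRT8, KRT18 and CDH2 were at 43.6 CPM (counts scaled to library size with TMM factors) or more in every library, whereas PTPRC (leukocytes), SFTPC (alveolar type 2 cells), MYH7 (muscle) and GFAP (astrocytes) reached at most 0.108 CPM, PECAM1 (endothelium) 0.999 CPM and ALB (hepatocytes) 0.85 CPM. The titles of 2 libraries at 6 h, p53 O6-meG replicate 2 and p53 TM replicate 2, each name the other group in their first part. Their channel counts lay against the genotype label: KCNS2 had 0 counts in the library labelled p53 O6-meG and 184 in that labelled p53 TM, and KCNJ12 had 50 and 424 counts. Outside the channel genes, CDKN1A had 2037 and 10698 counts and MDM2 12219 and 50489 in the same 2 libraries. Both were left out of the tests, which used 28 libraries, so that p53 O6-meG and p53 TM had 2 libraries each at 6 h. In sorted bulk cells, fewer cells that express a gene and less RNA per cell cannot be told apart.

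With the requirement of 10 or more counts in all 3 libraries of at least 1 group, 53 of the 85 channel genes were expressed. The same rule kept 49.2% of all rows and 78.7% of protein-coding rows. By class, 20 of 27 voltage-gated subunits were expressed, 6 of 7 calcium- or sodium-activated, 8 of 15 inward rectifiers, 6 of 12 tandem pore domain channels, 5 of 10 silent modulatory subunits and 8 of 13 auxiliary subunits. By group, between 37 (p53 TM at 6 h) and 47 (wild type p53 at 24 h) channel genes had 10 or more counts in all 3 libraries, and pGFP had 41 at 6 h and 46 at 24 h. These numbers follow the genotype label and include the 2 libraries with conflicting titles. KCNRG, a cytosolic protein that resembles the assembly domain of Kv channels, was not expressed. Just inside the limit were KCNE5, with 10 counts in the lowest library of its best group, and KCNC1, KCNE4 and KCNN3, with 11 counts each. Just outside were KCNAB1, KCNJ9 and KCNS3, with 7 counts each. Of the 32 genes that were not expressed, 12 never exceeded 3 counts in any library, namely KCNA1, KCNA3, KCNC2, KCNG2, KCNG4, KCNIP4, KCNJ13, KCNK12, KCNK17, KCNMB1, KCNS1 and KCNV2. The other 20 were KCNA2, KCNAB1, KCND3, KCNE1, KCNE2, KCNH6, KCNJ1, KCNJ10, KCNJ18, KCNJ4, KCNJ5, KCNJ9, KCNK15, KCNK4, KCNK7, KCNK9, KCNN2, KCNQ3, KCNRG and KCNS3.

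Without p53, the channel gene with the highest level per length was KCNN4, the intermediate-conductance calcium-activated channel of epithelial and blood cells, at a median of 8.23 CPM per kb of exon over the 6 pGFP libraries (5.78 to 9.96). KCNQ5, which carries an M-type voltage-gated current, followed at 4.44 (2.28 to 6.87), and KCNH3, of the ether-a-go-go family, at 3.62 (3.07 to 4.47), and the ranges of these neighbours overlapped in each case. Next came the silent subunit KCNG3 at 2.7 CPM per kb, the BK channel beta subunit KCNMB4 at 1.57, the silent subunit KCNG1 at 1.38, the pore subunit of a KATP channel KCNJ8 at 1.31 and the tandem pore domain channel KCNK6 at 1.18. Of these 8 genes, KCNG3 alone passed the test and the fold limit with wild type p53 at 24 h.

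To find which channel genes responded to p53, each vector was compared with pGFP at the same time by the edgeR quasi-likelihood test, and a gene was called differentially expressed (DEG) at 2-fold or more with an adjusted p under 0.05 over all 21335 genes tested. Of the 85 channel genes, 58 had enough counts to be tested and 27 had not. With wild type p53 at 24 h, 15 channel genes rose and 3 fell, while 9.22% of all genes tested rose and 1.99% fell. The median log2 fold change of the tested channel genes was 0, beside 0.01 for all genes. The risen genes included 4 voltage-gated subunits (KCNQ1, KCNH8 and KCNC4 among them), 3 silent subunits (KCNS2, KCNF1 and KCNG3), 3 inward rectifiers (KCNJ12, KCNJ3 and KCNJ9), 3 tandem pore domain channels (KCNK10, KCNK13 and KCNK3), the sodium-activated KCNT1 and the auxiliary KCNAB1. All 3 genes that fell, KCNC1, KCND2 and KCNB2, encode voltage-gated pore subunits.

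A gene was said to switch on when it had at most 3 counts in each pGFP library and at least 10 in each library of a p53 group at the same time. With wild type p53 at 24 h, 4 channel genes met this rule, KCNS2, KCNK10, KCNT1 and KCNQ1, as did 0.363% of all rows of the table and 0.613% of protein-coding rows. With limits of at most 10 and at least 30 counts, 2 met it, KCNS2 and KCNK10, since KCNT1 and KCNQ1 had libraries with 18 and 28 counts. At 6 h only KCNK10 met it with wild type p53, beside 0.224% of all rows and 0.349% of protein-coding rows. None did with p53 O6-meG or p53 TM at 6 h, beside 0.104% and 0.00508% of all rows (0.146% and 0.00562% of protein-coding rows).

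KCNS2 encodes a silent Kv subunit and lies on chromosome 8 (98426958 to 98432853, hg38). It had 0 counts in all 3 pGFP libraries at 24 h and 359, 380 and 248 counts in the wild type p53 libraries, that is 8.97, 8.18 and 5.88 CPM. Taking 3 counts over the pGFP group as the floor, wild type p53 raised its level at 24 h by a factor of at least 321. At 6 h it already had 290, 270 and 452 counts with wild type p53, beside 4, 0 and 2 with pGFP, a ratio of 167 (95% counting interval 76.3 to 455). It missed the rule for switching on at that time through 1 pGFP library with 4 counts. The 24 h difference passed the edgeR test with an adjusted p of 1.9e-10, and no wild type p53 library came near a pGFP library at either time. The rule for switching on chose KCNS2, KCNK10, KCNT1 and KCNQ1 from the same counts. At the times when it was met, their tests and the separation of their libraries therefore add no support. These genes also passed the filter for testing through p53 groups in which they were high.

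KCNK10 encodes a mechanically gated and lipid-sensitive leak channel of the TREK group and lies on chromosome 14 (88180103 to 88326907). It had 0 counts in all 6 pGFP libraries. With wild type p53 it had 11, 17 and 35 counts at 6 h and 143, 152 and 101 counts at 24 h, which is at least 20.7-fold and at least 129-fold higher than pGFP on the same floor (edgeR adjusted p = 7.5e-06 and 4.1e-10). All wild type p53 libraries were above all control libraries.

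KCNT1, the sodium-activated channel known as Slack, had 3, 0 and 0 counts with pGFP at 24 h and 28, 43 and 18 with wild type p53. The ratio was 28.9 (95% counting interval 9.58 to 143; edgeR adjusted p = 2.6e-05). At 6 h its counts were 0, 0 and 2 with pGFP and 9, 11 and 19 with wild type p53. The groups did not overlap at either time.

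KCNQ1, the voltage-gated channel of the slow cardiac repolarizing current and of epithelia, had 3, 3 and 2 counts with pGFP at 24 h and 32, 53 and 28 counts with wild type p53, a ratio of 13.8 (6.75 to 32.7; edgeR adjusted p = 5e-07). At 6 h its counts were 0, 0 and 1 with pGFP and 0, 0 and 1 with wild type p53. The antisense RNA KCNQ1OT1 lies within KCNQ1. The kit keeps strand, but whether the counting used it is not given in the sources used here, so the reads of antisense partners may not be separated. KCNQ1OT1 was at 12.2 CPM with pGFP and 11.1 CPM with wild type p53 at 24 h on average (log2 fold change -0.14, edgeR adjusted p = 0.77). At 6 h, when KCNQ1 had at most 1 count in any of these libraries, KCNQ1OT1 was at 12 CPM with pGFP and 8.1 CPM with wild type p53 on average. Whether reads were shared between the 2 genes was not tested.

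KCNA2, a voltage-gated subunit too low to test, was named after its values were seen. It had 0 counts in the 6 pGFP libraries and 4, 15 and 7 counts with wild type p53 at 24 h, at least 8.45-fold higher on the group floor, but it did not reach 10 counts in each library.

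**Figure D1:**
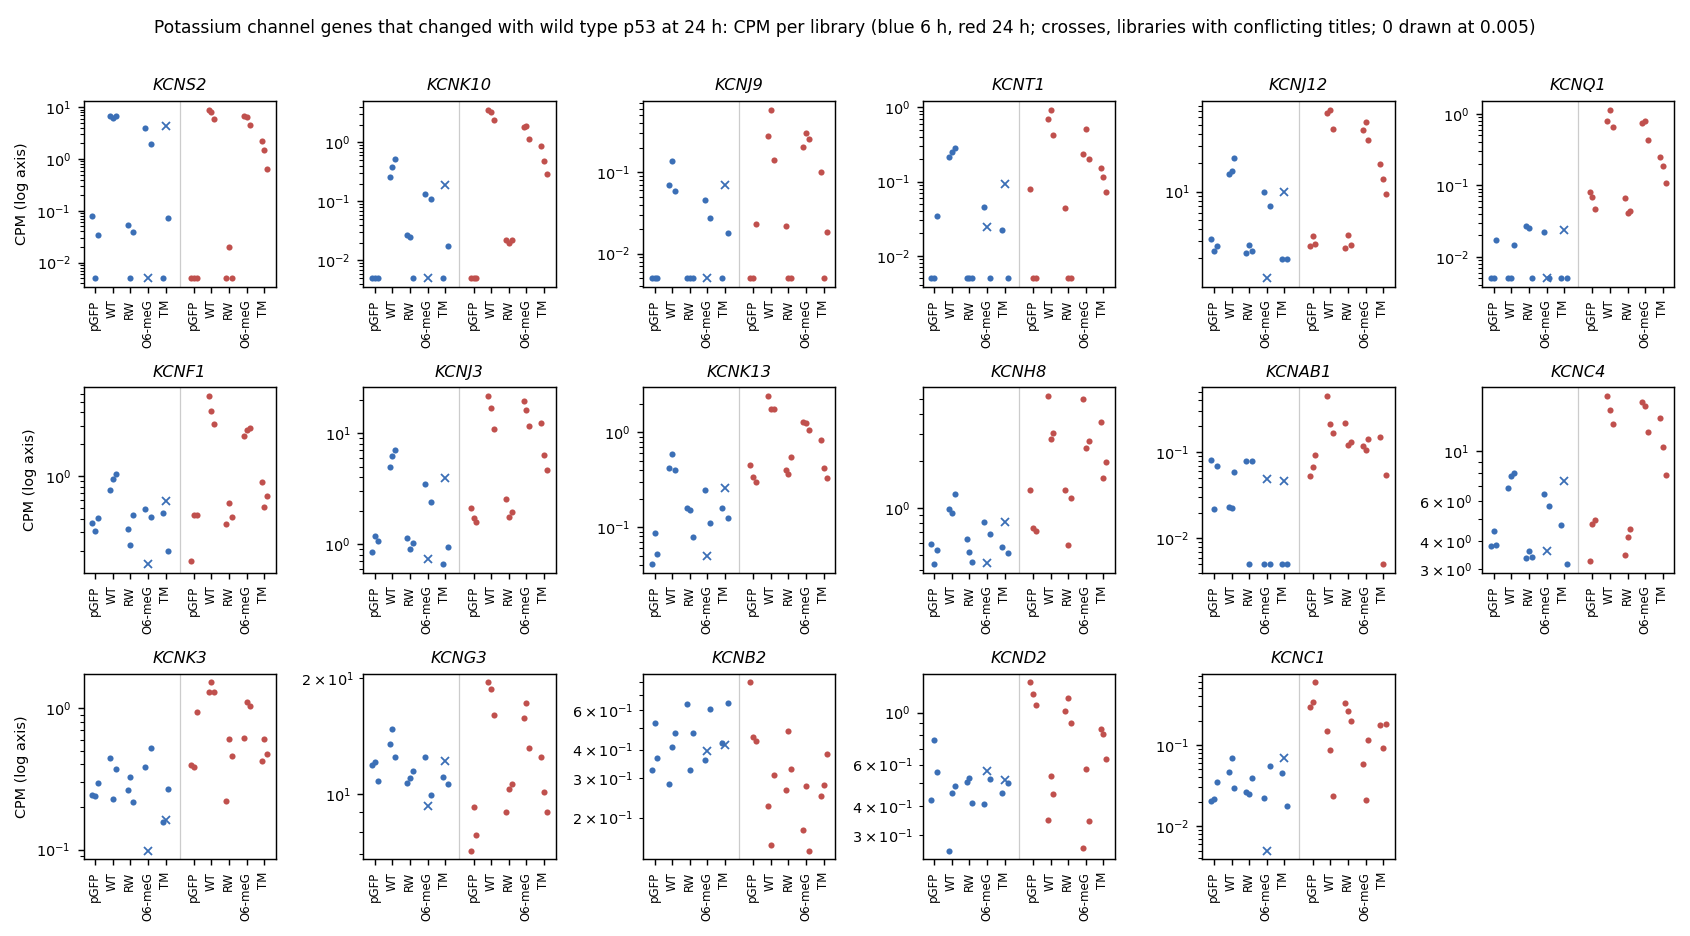
CPM on a log axis (0 drawn at 0.005) in each of the 30 libraries for 17 channel genes called with wild type p53 at 24 h, ordered by fitted change. Wild type p53 libraries stand above pGFP for the risen genes at 24 h, p53 TM libraries mostly lie between them, RW mutant libraries lie near pGFP for most genes (KCNAB1 is an exception), and crosses mark the 2 libraries with conflicting titles.

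Among the voltage-gated subunits, KCNH8, a slowly gating channel of the Elk group, was at 1.3, 0.747 and 0.712 CPM with pGFP at 24 h and at 5.22, 2.75 and 3.01 CPM with wild type p53 (log2 fold change 2.00 ± 0.34, SE, with 3 libraries per group, here and below, but 2 for p53 O6-meG and p53 TM at 6 h; edgeR adjusted p = 3.4e-05). KCNC4, a rapidly inactivating Kv channel, rose from 3.27, 4.78 and 4.98 CPM to 17.6, 15.3 and 13.2 CPM (log2 fold change 1.82 ± 0.19, edgeR adjusted p = 2.5e-08). For both genes every wild type p53 library exceeded every control library. At 6 h neither was called: KCNC4 had a log2 fold change of 0.91 ± 0.19 (edgeR adjusted p = 0.0012), under the fold limit, and KCNH8 one of 1.02 ± 0.37 (edgeR adjusted p = 0.088). With the replicate number as a block, KCNH8 was called at 6 h (log2 fold change 1.03, edgeR adjusted p = 0.00024).

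The silent subunits KCNF1 and KCNG3 also rose at 24 h. KCNF1, on chromosome 2 (10911934 to 10914225), went from 0.159, 0.43 and 0.436 CPM with pGFP to 5.7, 4.15 and 3.08 CPM (log2 fold change 3.62 ± 0.31, edgeR adjusted p = 9.9e-10). KCNG3 started from a higher level and went from 7.14, 9.26 and 7.83 CPM to 19.5, 18.7 and 16 CPM (log2 fold change 1.16 ± 0.13, edgeR adjusted p = 6.2e-08). Neither gene's groups overlapped at 24 h. Of the 10 silent subunits, 5 had enough counts to be tested, and 3 of these were called higher at 24 h, beside 9.22% of all genes tested. KCNS2, which is among the 3, had enough counts only through p53 groups. The class is small, so the count is a description, and enrichment was not tested. KCNG1 and KCNV1 were not called, although KCNV1 was lower with an edgeR adjusted p under 0.05 but less than 2-fold.

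Among the inward rectifiers, KCNJ12 had the largest rise in CPM of all channel genes. It encodes a strong inward rectifier of muscle and nerve that holds the resting potential, and lies on chromosome 17 (21376357 to 21419870). It was at 2.66, 3.4 and 2.8 CPM with pGFP and at 66.1, 72.3 and 45.4 CPM with wild type p53 at 24 h, a mean difference of 58.3 CPM and a log2 fold change of 4.37 ± 0.25 (edgeR adjusted p = 1.2e-12). At 6 h the values were 3.2, 2.38 and 2.7 CPM against 15.4, 16.5 and 22.4 CPM (log2 fold change 2.71 ± 0.24, edgeR adjusted p = 5.5e-09). The wild type p53 libraries at 24 h were above those at 6 h, whereas the controls overlapped between the times. KCNJ12 and KCNJ18 are near-identical copies, so the assignment of reads between them is uncertain, and KCNJ18 had at most 4 counts in any library.

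KCNJ3 and KCNJ9 encode subunits of the G-protein-gated inward rectifiers. KCNJ3, on chromosome 2 (154697855 to 154858354), went from 2.1, 1.72 and 1.58 CPM to 21.7, 16.9 and 10.9 CPM at 24 h (log2 fold change 3.20 ± 0.30, edgeR adjusted p = 6.1e-09), with no overlap between the groups. KCNJ9 was low: it had 0, 0 and 1 counts with pGFP and 11, 27 and 6 counts with wild type p53 at 24 h, a ratio of 42.9 with a wide counting interval (7.3 to 1732; edgeR adjusted p = 0.00022). At 6 h KCNJ9 had 0 counts with pGFP and 3, 6 and 4 counts with wild type p53. That call (edgeR adjusted p = 0.024) did not hold without pGFP replicate 1, 2 or 3 or wild type p53 replicate 2 at 6 h, when the adjusted p was 0.073, 0.066, 0.084 and 0.084. Of the other inward rectifiers tested, none was called at 24 h.

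Of the tandem pore domain channels, KCNK13 (THIK type, inhibited by halothane) and KCNK3 (TASK type, closed by acid) rose beside KCNK10. KCNK13, on chromosome 14 (90061994 to 90185853), was at 0.451, 0.34 and 0.298 CPM with pGFP and at 2.42, 1.76 and 1.78 CPM with wild type p53 at 24 h (log2 fold change 2.45 ± 0.30, edgeR adjusted p = 2.8e-07). It was also higher at 6 h (log2 fold change 2.92 ± 0.43, edgeR adjusted p = 2e-05). KCNK3 was at 0.398, 0.385 and 0.941 CPM with pGFP and at 1.3, 1.53 and 1.3 CPM with wild type p53 at 24 h (log2 fold change 1.25 ± 0.32, edgeR adjusted p = 0.0029), while at 6 h the log2 fold change was 0.41 ± 0.39. The 24 h groups did not overlap for either gene, although 1 pGFP library of KCNK3 lay well above the other controls.

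The auxiliary subunit KCNAB1, a cytosolic beta subunit of Kv channels, had the highest adjusted p among the genes called higher with wild type p53 at 24 h. It was at 0.0531, 0.068 and 0.0918 CPM with pGFP and at 0.45, 0.215 and 0.166 CPM with wild type p53 at 24 h (log2 fold change 1.90 ± 0.63, edgeR adjusted p = 0.022). The call was lost without pGFP replicate 1 or 2 at 24 h (edgeR adjusted p = 0.07 and 0.064) and in DESeq2 (adjusted p = 0.065). Of the 9 auxiliary subunits tested, it alone was called.

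The genes that fell, meaning that they were lower than in pGFP at the same time, were low. KCNC1, a fast delayed rectifier, was at 0.292, 0.34 and 0.597 CPM with pGFP and at 0.15, 0.0861 and 0.0237 CPM with wild type p53 at 24 h (log2 fold change -2.23 ± 0.46, edgeR adjusted p = 0.00042). KCND2, which carries a transient A-type current, was at 1.35, 1.2 and 1.08 CPM against 0.35, 0.538 and 0.451 CPM (log2 fold change -1.42 ± 0.26, edgeR adjusted p = 0.00011). KCNB2, a delayed rectifier, was at 0.797, 0.453 and 0.436 CPM against 0.225, 0.151 and 0.308 CPM (log2 fold change -1.29 ± 0.37, edgeR adjusted p = 0.0079). In all 3 genes the wild type p53 libraries lay below the control libraries, but the KCNB2 call was lost without pGFP replicate 1 (log2 fold change -0.97, edgeR adjusted p = 0.07) or without wild type p53 replicate 2 at 24 h (-1.05, edgeR adjusted p = 0.053). KCNC1 had 1, 1 and 2 counts with pGFP at 6 h and 11, 15 and 26 at 24 h. With wild type p53 it had 2, 3 and 2 counts at 6 h and 6, 4 and 1 at 24 h. Mean levels at 6 h with pGFP and wild type p53 were 0.583 and 0.4 CPM for KCND2 and 0.405 and 0.388 CPM for KCNB2. For KCNC1 and KCND2 the control was thus higher at 24 h than at 6 h, a change that was not tested.

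The remaining 40 tested channel genes were not called with wild type p53 at 24 h. Of these, 5 were higher with an adjusted p under 0.05 but less than 2-fold (KCNH2, KCNH7, KCNIP2, KCNIP3 and KCNQ5, log2 fold change 0.50 to 0.84), and 7 were lower (KCND1, KCNH5, KCNK5, KCNMB3, KCNMB4, KCNT2 and KCNV1, -0.90 to -0.58). KCNQ5, with a log2 fold change of 0.84 ± 0.14, had the next largest rise in CPM after KCNJ12, from 25.8, 36 and 40.3 CPM to 60.2, 55.9 and 66.8 CPM. For the other 28 the adjusted p was 0.05 or more. Among them were KCNN4 (log2 fold change 0.30 ± 0.13, edgeR adjusted p = 0.075) and the BK channel pore subunit KCNMA1 (0.22 ± 0.12, edgeR adjusted p = 0.18).

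At 6 h, 9 channel genes rose with wild type p53 and none fell at an adjusted p under 0.05 and 2-fold, while 4.39% of all genes tested rose and 0.0937% fell, 4.49% together. The 9 included KCNS2, KCNK10, KCNJ9, KCNT1, KCNK13, KCNJ12, KCNJ3 and KCNF1, and all 9 were also called at 24 h. The 2 comparisons use separate libraries but come from the same fit and share its estimate of the spread. The share of all genes called at 6 h that were also called at 24 h was not computed, so this overlap is only a description. KCNF1 was the smallest of them at 6 h, with 0.75, 0.934 and 1.05 CPM against 0.365, 0.306 and 0.401 CPM (log2 fold change 1.35 ± 0.32, edgeR adjusted p = 0.0046). The 6 genes called higher at 24 h but not at 6 h were KCNQ1, KCNH8, KCNAB1, KCNC4, KCNK3 and KCNG3.

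Whether the change with wild type p53 differed between the times was tested as an interaction in the same fit, with no fold limit. It was called for 6 channel genes, 5 with a larger value at 24 h and 1 with a smaller one, beside 6.51% of all genes tested (3.73% larger and 2.77% smaller). The difference in log2 fold change, 24 h minus 6 h, was 2.27 ± 0.45 for KCNF1 (edgeR adjusted p = 0.003), 1.66 ± 0.33 for KCNJ12 (edgeR adjusted p = 0.0031) and 0.93 ± 0.18 for KCNG3 (edgeR adjusted p = 0.002). It was 0.91 ± 0.26 for KCNC4 (edgeR adjusted p = 0.039) and 0.77 ± 0.20 for KCNQ5 (edgeR adjusted p = 0.02). KCNMB4 differed by -0.66 ± 0.16 (edgeR adjusted p = 0.012), with 10.2, 9.36 and 8.88 CPM in pGFP and 5.02, 6.22 and 5.67 CPM with wild type p53 at 24 h, against 5.83, 6.42 and 6.01 CPM and 5.67, 5.85 and 5.62 CPM at 6 h. KCNQ1, KCNAB1, KCNH8 and KCNK3 were called at 24 h and not at 6 h, but the interaction did not pass for them (edgeR adjusted p = 0.4, 0.21, 0.3 and 0.42). With the replicate block, 15 channel genes were called in this test, 7 higher and 8 lower, including KCNH8 (difference 0.96, edgeR adjusted p = 0.01) and KCNC1 (-2.96, edgeR adjusted p = 0.039). The KCNC4 call was lost without any 1 of the 3 pGFP or 3 wild type p53 libraries at 6 h, pGFP replicate 1 or wild type p53 replicate 1 or 2 at 24 h (edgeR adjusted p = 0.052 to 0.12). The KCNQ5 call was lost without pGFP replicate 1 at 24 h (0.067), wild type p53 replicate 1 at 6 h or pGFP replicate 3 at 6 h (0.068 each). With the conflicting libraries entered by their genotype label, KCNC4 and KCNJ12 did not pass (0.13 and 0.19). Entered by the first part of their titles, both passed.

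**Figure D2:**
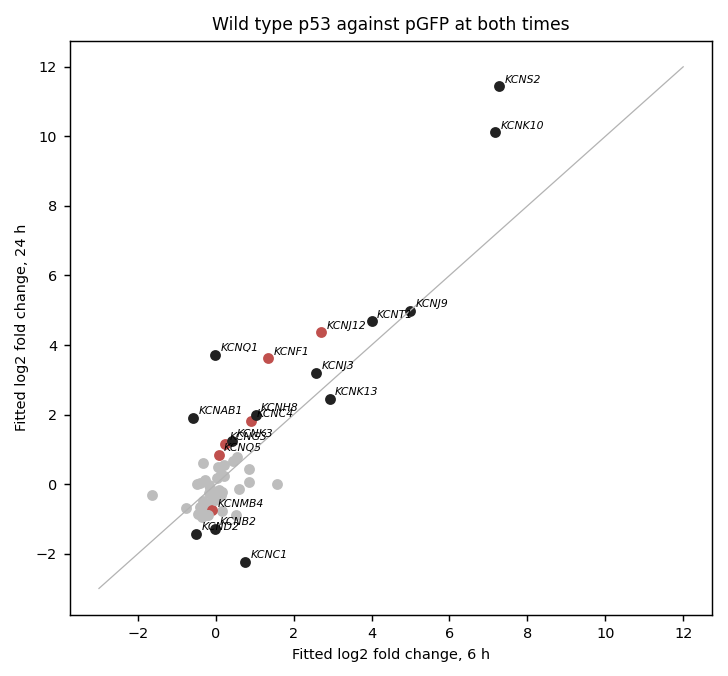
Fitted log2 fold change of wild type p53 against pGFP at 6 h (x axis) and 24 h (y axis) for tested channel genes, with the line of equality. Red points are the 6 genes whose change differed between the times, black points the other genes called at either time, and grey points the rest. KCNF1 and KCNJ12 lie clearly above the line, and KCNQ1 near 0 at 6 h and 3.71 at 24 h. Fitted values of KCNK10 at both times, KCNS2 at 24 h and KCNJ9 at 6 h rest on control groups with 0 counts and are not estimates of a fold.

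With RW mutant p53 no channel gene was called at either time. The edgeR adjusted p was 1 for all of the tested channel genes at 6 h and at 24 h, and at an unadjusted p under 0.05 there were 0 at 6 h and 1 at 24 h (KCNG3, log2 fold change 0.30). DESeq2 also called 0 at each time. Over all genes 0.00469% were called at each time. KCNJ12 was at 2.57, 3.46 and 2.77 CPM with RW mutant p53 at 24 h, beside 2.66, 3.4 and 2.8 CPM with pGFP. KCNS2 had at most 0.0201 CPM in any RW mutant library at 24 h.

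With p53 O6-meG and active repair, 12 channel genes rose and 3 fell at 24 h, beside 7.36% and 1.8% of all genes, 9.16% together. The comparisons of the different vectors with pGFP share their control libraries, so their values are given side by side. KCNJ12 was at 43.8, 54.2 and 34.6 CPM (log2 fold change 3.90 ± 0.25) and KCNJ3 at 19.4, 16.1 and 11.5 CPM (3.12 ± 0.30). KCNS2 was at least 250-fold and KCNK10 at least 68.5-fold higher than pGFP on the group floor. KCNK10, KCNQ1 and KCNS2 met the rule for switching on, as did 0.264% of all rows and 0.456% of protein-coding rows, while KCNT1 missed it with 8, 24 and 7 counts. KCNAB1 (log2 fold change 0.74 ± 0.73), KCNK3 (0.68 ± 0.33) and KCNG3 (0.93 ± 0.13) were not called. KCNB2 was among the genes that fell (-1.43 ± 0.38), but not without pGFP replicate 1 at 24 h (-1.11, edgeR adjusted p = 0.05). Over the 15 genes that rose with wild type p53 at 24 h, p53 O6-meG reached a median of 72.9% of the wild type rise in CPM, from 24.9% for KCNAB1 to 95.1% for KCNC4. The genes were chosen by that same rise, which favours lower shares in other groups. The share over all genes chosen in this way was not computed.

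With p53 TM, 7 channel genes rose and 1 fell at 24 h, beside 3.03% and 0.117% of all genes. KCNJ12 was at 19.7, 13.5 and 9.33 CPM (log2 fold change 2.25 ± 0.24, edgeR adjusted p = 2.2e-07) and KCNJ3 at 12.4, 6.32 and 4.68 CPM (2.11 ± 0.30, edgeR adjusted p = 1.8e-05). Every p53 TM library of both genes was above every control library, and for KCNJ12 below every wild type p53 library. KCNS2, with 90, 64 and 35 counts, and KCNK10, with 35, 21 and 16 counts, met the rule for switching on, as did 0.117% of all rows and 0.191% of protein-coding rows. These 2 genes were at least 57.1-fold and at least 21.8-fold higher than pGFP. KCNC4 rose (log2 fold change 1.30 ± 0.19, edgeR adjusted p = 2.1e-05), as did KCNH8 (1.35 ± 0.34, edgeR adjusted p = 0.0087), and KCNC1 fell (-1.43 ± 0.42, edgeR adjusted p = 0.025). The KCNH8 call was lost without p53 TM replicate 1 or pGFP replicate 2 or 3 at 24 h (edgeR adjusted p = 0.11, 0.055 and 0.058), and the KCNC1 call without p53 TM replicate 1 or 2 or pGFP replicate 3 (0.057, 0.12 and 0.2). KCNQ1, at 0.25, 0.185 and 0.109 CPM, was not called (log2 fold change 1.43 ± 0.55, edgeR adjusted p = 0.11) except with the replicate block (1.44, edgeR adjusted p = 0.048). The median share of the wild type rise reached by p53 TM over the 15 genes was 17.9%, from -9.35% for KCNK3 to 58.2% for KCNC4. The choice of these genes by their wild type rise favours low shares here too, so the share is only a description.

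**Figure D3:**
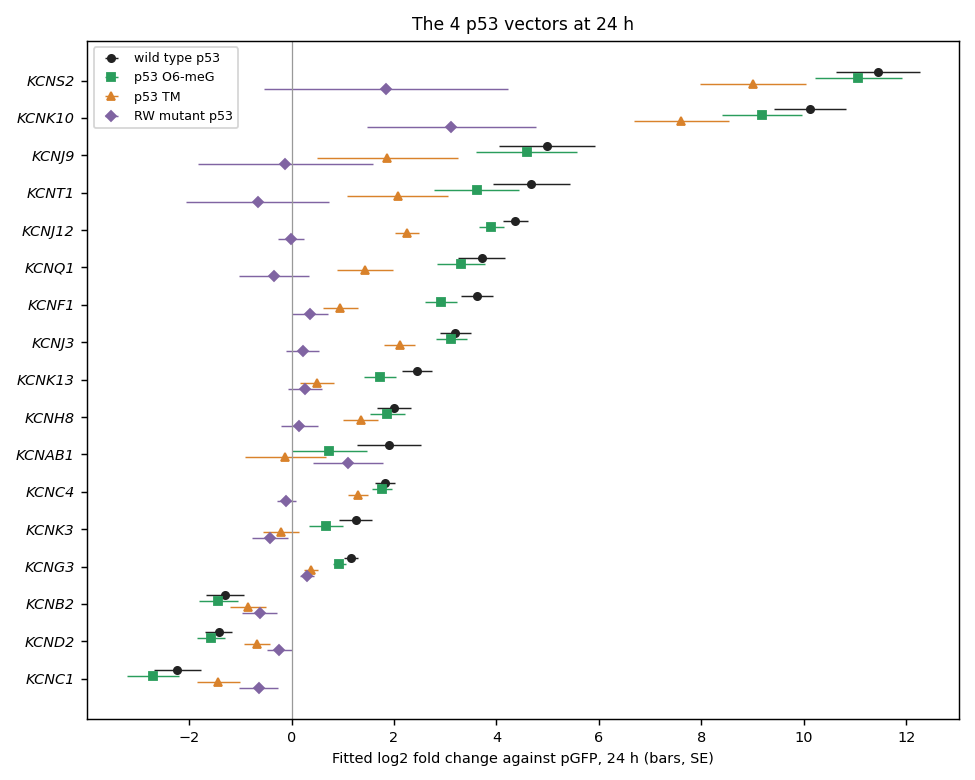
Fitted log2 fold change against pGFP at 24 h (x axis; bars, SE) of 17 channel genes called with wild type p53, for wild type p53, p53 O6-meG, p53 TM and RW mutant p53, which share the 3 pGFP libraries. For the risen genes shown the p53 TM value lies below that of wild type p53, as for KCNJ12 (2.25 against 4.37). Fitted values of KCNS2 and KCNK10 rest on control groups with 0 counts and are not estimates of a fold.

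At 6 h the p53 O6-meG vector gave 5 called channel genes, all higher (KCNS2, KCNK10, KCNJ12 and KCNJ3 among them), beside 1.98% of all genes, and p53 TM gave none, beside 0.0656% of all genes. With p53 TM at 6 h, 6 channel genes had an unadjusted p under 0.05, and DESeq2 called 0. In the 2 p53 O6-meG libraries tested, KCNJ12 was at 9.94 and 7.06 CPM. In the 2 p53 TM libraries tested, KCNJ12 was at 1.94 and 1.97 CPM, below the control range. When the 2 libraries with conflicting titles were entered by the first part of their titles, 6 channel genes were called with p53 O6-meG at 6 h. When they were entered by their genotype label, 0 were called, and KCNS2 had an edgeR adjusted p of 0.093. The p53 O6-meG calls at 6 h also fell to 3 without replicate 1, when KCNJ3 (edgeR adjusted p = 0.16) and KCNK10 (0.068) were lost, and KCNJ3 was lost without pGFP replicate 1 at 6 h (0.051).

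p53 TM was also compared directly with wild type p53, with no fold limit. Neither pGFP nor wild type p53 cells received O6-benzylguanine. In comparisons of p53 TM with either, effects of the drug and of the unrepaired lesion cannot be told apart. At 24 h, 18 channel genes were lower and 4 were higher with p53 TM, beside 11.9% and 9.29% of all genes, and the median log2 fold change was -0.23 for the tested channel genes and -0.01 for all genes. Of the 18 lower genes, KCNJ9 (log2 fold change -3.11 ± 0.71), KCNF1 (-2.67 ± 0.28), KCNT1 (-2.62 ± 0.57), KCNK10 (-2.51 ± 0.32), KCNS2 (-2.43 ± 0.34), KCNQ1 (-2.28 ± 0.38) and KCNJ12 (-2.12 ± 0.22) differed most. KCNF1, for example, was at 0.876, 0.509 and 0.654 CPM with p53 TM and at 5.7, 4.15 and 3.08 CPM with wild type p53 (edgeR adjusted p = 8.3e-07). KCNK13 (-1.95 ± 0.28), KCNK3 (-1.46 ± 0.32), KCNJ3 (-1.09 ± 0.27) and KCNG3 (-0.78 ± 0.12) were also lower. KCNH8 did not pass (-0.65 ± 0.31, edgeR adjusted p = 0.15), but did with the replicate block (-0.66, edgeR adjusted p = 0.00037).

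Of the genes lower with p53 TM that were not called against pGFP, KCNQ5 (-0.62 ± 0.14), KCNH2, the rapid cardiac repolarizing channel (-0.86 ± 0.22), KCNIP3, a calcium-binding partner of A-type channels (-0.63 ± 0.17), and KCNN4 (-0.45 ± 0.13) changed by less than 2-fold. The 4 higher genes were KCND2 (0.76 ± 0.27), the sodium-activated KCNT2 (0.53 ± 0.15), KCNMB4 (0.49 ± 0.11) and KCNH5 of the ether-a-go-go family (0.44 ± 0.09). KCNH5, for example, was at 11.2, 12.8 and 11.7 CPM with p53 TM, 8.49, 9.15 and 8.56 CPM with wild type p53 and 12.9, 13.6 and 12.6 CPM with pGFP. Several of the smaller calls depended on 1 library. KCNH2 was lost without wild type p53 replicate 2 (edgeR adjusted p = 0.057), KCNIP3 without p53 TM replicate 3 (0.086), and KCNN4 and KCNT2 without either of these libraries (0.09 and 0.063 for KCNN4, 0.084 and 0.085 for KCNT2). KCNAB1 (-2.02 ± 0.63) was lost without p53 TM replicate 2 or 3 (0.11 and 0.095), KCNC4 (-0.52 ± 0.18) without wild type p53 replicate 1 or 2 or p53 TM replicate 2 or 3 (0.17, 0.077, 0.11 and 0.24), and KCND2 under 22 of 35 alternatives. With the conflicting 6 h libraries entered by their genotype label, KCNS2 (0.056) and KCNJ3 (0.077) fell short at 24 h as well. Entered by the first part of their titles, both passed. When only the p53 TM and wild type p53 libraries at 24 h were fitted, the edgeR adjusted p was 0.062 for KCNH2, 0.065 for KCNMB4, 0.08 for KCNIP3, 0.084 for KCNN4, 0.1 for KCNJ3 and for KCNT2, 0.12 for KCND2 and 0.16 for KCNC4.

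At 6 h, 13 channel genes were lower with p53 TM than with wild type p53 and 1 was higher, beside 8.14% and 2.77% of all genes. The lower genes included KCNS2 (log2 fold change -7.27 ± 0.66), KCNJ12 (-3.21 ± 0.29), KCNJ3 (-2.91 ± 0.38), KCNK13 (-1.71 ± 0.42), KCNF1 (-1.53 ± 0.37), KCNIP2 (-1.23 ± 0.38), KCNN1 (-1.16 ± 0.35), KCNJ8 (-1.09 ± 0.25), KCNC4 (-0.95 ± 0.21) and KCNK6 (-0.47 ± 0.15). KCNK10 and KCNT1 had 1 count each over the 2 p53 TM libraries, beside 63 and 39 counts over the 3 wild type p53 libraries (edgeR adjusted p = 0.00022 and 0.01). KCNJ2, a strong inward rectifier, was higher (0.88 ± 0.20, edgeR adjusted p = 0.003), at 1.92 and 2.72 CPM with p53 TM against 1.15, 1.12 and 1.49 CPM. KCNK6 was lost under 20 of 35 alternatives, KCNN1 under 9 (DESeq2 adjusted p = 0.1) and KCNIP2 under 5. KCNJ8 was lost without p53 TM replicate 1 (edgeR adjusted p = 0.12), KCNK13 without p53 TM replicate 1 or 3 (0.051 and 0.11), and KCNF1, KCNC4, KCNT1 and KCNJ2 without p53 TM replicate 3 (0.2, 0.13, 0.15 and 0.15). Without p53 TM replicate 3 the total fell from 14 to 6. With the conflicting libraries entered by their genotype label it was 0, and by the first part of their titles 17.

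Over the 10 group means of log2 CPM, the channel genes whose pattern was most like that of KCNJ12 included KCNK10 (Pearson r = 0.98), KCNJ3 (0.976), KCNC4 (0.974) and KCNT1 (0.948). The genes most like KCNQ5 were KCNMA1 (0.876), KCNH4 (0.863), KCNN4 (0.843), KCNJ14 (0.789) and KCNH7 (0.722). These are descriptions over groups that share libraries and treatments.

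The sequences around the starts of the channel genes were searched on both strands for the p53 decamer, the 10-base repeat of which a pair, with 0 to 13 bases between, makes up a full p53 response element. Decamers within one element abut or are spaced, and were not allowed to overlap. In RefSeq promoters (GRCh38.p14, 250 bases before to 50 after the start), 62 of the 85 genes had an entry, and a decamer was found in 11.5% of their 96 entries beside 6.64% of all 34943 promoters. No entry of a channel gene held a full element, beside 0.0286% of all. Of the 15 genes that rose, 10 had an entry, and the only one with a decamer was KCNK13. The promoters of KCNK13 (chr14:90061744-90062043, plus strand) and KCNK10 (chr14:88326863-88327162, minus strand) are shown because these tandem pore domain channels both rose at 6 h and 24 h and 1 of them switched on. Capitals mark the decamer, and KCNK10 has none in this window.
KCNK13 promoter: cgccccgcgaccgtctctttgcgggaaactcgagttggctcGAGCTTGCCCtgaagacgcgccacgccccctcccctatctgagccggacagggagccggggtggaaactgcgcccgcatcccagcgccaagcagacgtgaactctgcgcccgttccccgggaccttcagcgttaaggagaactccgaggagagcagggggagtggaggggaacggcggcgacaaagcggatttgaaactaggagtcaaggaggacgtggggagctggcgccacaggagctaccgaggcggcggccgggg
KCNK10 promoter: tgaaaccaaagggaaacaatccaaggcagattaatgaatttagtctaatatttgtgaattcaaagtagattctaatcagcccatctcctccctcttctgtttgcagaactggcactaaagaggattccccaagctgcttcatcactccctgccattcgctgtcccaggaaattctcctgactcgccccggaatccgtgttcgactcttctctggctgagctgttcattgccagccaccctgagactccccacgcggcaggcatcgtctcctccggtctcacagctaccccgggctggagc

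Within 10000 bases to either side of the start in hg38, a full element was found for 6 of the 85 channel genes (7.06%), beside 2.57% of 17779 protein-coding genes. They included KCNC4, KCNH2, KCNH6, KCNK13 and KCNK2. KCNC4 and KCNK13 rose with wild type p53 at 24 h. KCNH2 (log2 fold change 0.66 ± 0.22) and KCNK2 (0.18 ± 0.28) were not called, and KCNH6 was too low to test. The KCNC4 element lies in the coding sequence (chr1:110211547-110211573, plus strand), that of KCNK13 in an intron (chr14:90067791-90067817, plus strand) and that of KCNH2 in an intron (chr7:150976549-150976574, minus strand). The KCNK2 element lies upstream of the gene (chr1:215001836-215001855, plus strand) and is the only one of the 6 with no bases between its decamers. These 4 are shown to set elements beside risen and uncalled genes next to each other, with decamers in capitals. A match is a description of the letters and not of binding.
KCNC4 element: GAACAAGCCTccgtccaAAACATGTCT
KCNK13 element: AAACTAGCTTttgttagGAGCTTGTCC
KCNH2 element: GGGCATGCCTtcgaagAAACTTGCTC
KCNK2 element: GAACATGCTTGGGCTTGCCT

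A list of 36 other potassium handling genes (pumps and their FXYD subunits, cation-chloride cotransporters, HCN channels, sulfonylurea receptors and accessory subunits) was treated in the same way, of which 34 had a row and 20 were tested. With wild type p53, 1 was called higher at 6 h (FXYD3), beside 4.39% of all genes tested, and 7 at 24 h, beside 9.22%, and none was lower. The cotransporters SLC12A7, at 17.6 CPM with pGFP and 75.3 CPM with wild type p53 on average (log2 fold change 2.10 ± 0.20), and SLC12A4, at 67.8 and 146 CPM (1.11 ± 0.11), are known for K+ and Cl- efflux during volume decrease. LRRC38, a gamma subunit of the BK channel, was at 0.00755 and 1.43 CPM (edgeR adjusted p = 8.2e-08), while KCNMA1, which encodes the pore it joins, was not called. Among the others were HCN4 (2.29 ± 0.57), the proton-potassium pump ATP12A (1.68 ± 0.54) and FXYD3, at 0 and 0.607 CPM. With p53 O6-meG at 24 h 6 were called higher, beside 7.36% of all genes, and with p53 TM 3 (LRRC38, SLC12A7 and FXYD3), beside 3.03%. Against wild type p53 at 24 h, 6 were lower and 2 higher with p53 TM, beside 11.9% and 9.29% of all genes.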

How the data were processed

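RNA of GFP-sorted H1299 cells was sequenced in 30 libraries (ribosomal RNA depleted, single reads). The authors aligned reads to hg38 with STAR 2.5.3a and deposited raw counts per gene made with featureCounts (Subread 1.5.2) on GENCODE v27. A deposited table of normalized values was not used here. Ensembl IDs were named from GENCODE v44 (38904 of 39359 rows matched), and 11 annotated KCN genes without a row were not analysed here. Some genes are counted in totals but not reported here by name. Counts of 28 libraries were filtered (filterByExpr), TMM-scaled and tested with edgeR 4.0.16 (R 4.3.3) by the quasi-likelihood test with 1 mean per group and Benjamini-Hochberg adjustment over 21335 genes, and SE is the log2 fold change divided by the root of F. Groups were taken from the genotype label. Genes were named by rule: every member called against pGFP or in p53 TM against wild type p53, those that switched on, the 8 highest per length without p53, and those near the limit for expression. The members and lists were chosen with earlier results of these data known. Counting intervals (95%) and the floor of 3 counts cover counting error only. Where the groups of a called gene are said not to overlap, its test used the same libraries, so this is a description. The edgeR and DESeq2 fits were also run on simulated data, counts drawn with known fold changes and with the spread of the main fit. The simulation drew each library independently, so it does not cover the pairing described next. Same-numbered libraries deviated together (residual r 0.109 to 0.614 in 9 of 9 pairs at 6 h over pGFP, wild type and RW mutant p53, and 0.407 to 0.864 in 30 of 30 at 24 h), so the numbers pair the samples. The pairing comes from these data, as the labels give no shared day. Alternatives were DESeq2 1.42.0 (test, and size factors in edgeR), no filter, only the groups compared, the replicate block, both groupings of the conflicting libraries and leaving out each library.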

Additional observations from a re-analysis of the deposited data

Results flagged for a closer look

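The change with wild type p53 against pGFP differed between 24 h and 6 h for 6 channel genes in the interaction test, given here as the 24 h minus the 6 h log2 fold change. The difference was 2.27 for KCNF1, 1.66 for KCNJ12, 0.93 for KCNG3, 0.91 for KCNC4, 0.77 for KCNQ5 and -0.66 for KCNMB4. All 3 wild type p53 libraries of KCNF1, KCNJ12, KCNG3, KCNC4 and KCNQ5 lay above the 3 control libraries at 24 h, and all 3 of KCNMB4 lay below them. The test that chose these genes used the same libraries, so this is a description and adds no support. The share of all genes with such separation was not computed.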

How the results depend on the processing

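No call changed sign under any alternative, and 58 of the 97 calls of single genes held under all of them. With wild type p53 at 24 h 16 of 18 calls held under all, and the count was between 16 and 20. Scaling by DESeq2 size factors moved the median of all genes by at most 0.05 (log2). With the conflicting libraries entered by genotype, the counts for p53 O6-meG at 6 h and for p53 TM against wild type p53 at 6 h were both 0. Entered by the first part of their titles, these counts were 6 and 17. In a fit of only the groups compared, p53 TM against wild type p53 at 24 h gave 12. With the replicate block the interaction gave 15, and counts were 12 (wild type p53, 6 h), 7 (p53 O6-meG, 6 h), 11 (p53 TM, 24 h), 21 and 28 (p53 TM against wild type p53, 6 h and 24 h), with the others as before. No call was lost under the block. Among the genes the report names, further calls gained were KCNAB1 (0 counts in both p53 O6-meG libraries; edgeR adjusted p = 0.042) and KCNK13 (1.75) for p53 O6-meG at 6 h, KCNH2 (-1.02), KCNH8 (-1.05), KCNIP3 (-0.63) and KCNN4 (-0.45) for p53 TM against wild type p53 at 6 h, and KCND2 (-0.93), KCNH5 (-0.40), KCNJ8 (-0.75), KCNK6 (-0.43) and KCNT2 (-0.68) for the interaction. With limits of at most 10 counts in pGFP and at least 30 with p53, the genes that switched on numbered 2 (wild type p53, 6 h), 2 (p53 O6-meG, 6 h), 2 (wild type p53, 24 h) and 1 (p53 TM, 24 h), and with limits of 0.1 and 0.3 CPM 2 (wild type p53, 6 h), 1 (p53 O6-meG, 6 h) and 1 (p53 TM, 24 h). At 0.5 CPM in place of 10 counts, 43 genes were expressed. Leaving out 1 library gave 8 to 11 calls for wild type p53 at 6 h, 3 to 5 for p53 O6-meG at 6 h, 17 to 19 for wild type p53, 15 to 20 for p53 O6-meG and 6 to 9 for p53 TM at 24 h, 6 to 15 and 17 to 23 for p53 TM against wild type p53 at 6 h and 24 h, 4 to 8 for the interaction and 0 to 0 for RW mutant p53 and for p53 TM at 6 h. The genes that switched on then numbered 1 to 2 (wild type p53, 6 h), 0 to 1 (p53 O6-meG, 6 h), 4 to 5 (wild type p53, 24 h), 3 to 3 (p53 O6-meG, 24 h) and 2 to 2 (p53 TM, 24 h). The cause of these differences was not tested. Depth limits the low genes: of the members tested, KCNJ9 and KCNAB1 had at most 27 and 18 counts in any library.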
